A study of Caenorhabditis elegans with 2 samples.

Results

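The genes described here are 41 neuronal and patterning regulators of Caenorhabditis elegans, taken by name from a list, out of 19973 protein-coding genes on the 6 nuclear chromosomes, and all 41 symbols matched the annotation. Of these, 40 are homeobox genes, and unc-3 is not: it encodes a COE-type factor, which the list's working name does not cover. By class there are 6 LIM, 2 POU, 10 paired-like and PAX, 4 sine oculis type, 4 TALE and 14 ANTP and NK genes. The data are from chromatin immunoprecipitation with sequencing (ChIP-seq) of MEC-3 carrying a C-terminal GFP-FLAG tag, precipitated with an antibody against GFP from sonicated chromatin. The animals were hermaphrodite late embryos of strain OP55 (unc-119(ed3) III; wgIs55), 4 hours after synchronization by egg bleaching, and every sample carried both the unc-119 allele and the transgene. There was 1 group of 2 biological replicates. The sources used here do not say what drives the transgene or how many cells express it, and chromatin came from whole embryos, so the cells behind a region cannot be told apart.

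Homeobox genes encode transcription factors that bind DNA through a homeodomain and act in combinations, so that each neuron class or body region has its own set. MEC-3 is a LIM homeodomain protein that specifies the touch receptor neurons and binds DNA together with the POU protein UNC-86, and homeodomain proteins often regulate one another's genes. LIM and POU factors fix neuron classes, paired-like factors act in sensory and motor neurons, sine oculis type and PAX factors shape the head, TALE proteins are partners of Hox proteins, and many ANTP and NK factors pattern the axis or the organs.

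Candidate regions were read from 3 deposited lists, made by the authors from both replicates together (the pooled list), from replicate 1 and from replicate 2, and final peaks from a further list that they selected across the replicates. A region was given to a gene when its summit, the point of highest enrichment, lay from 5000 bp upstream of the annotated 5′ end to the end of the gene. The stretches printed next are centred on the highest pooled summits of 5 of the genes whose strongest region lay inside the gene itself. They show the sequence under those 5 summits only. Of all 40 highest pooled summits, 15 fell in coding exons and 13 in introns. They are the plus strand of WBcel235 from the RefSeq copy of that assembly, written 5′ to 3′, with coding exon bases in capitals and all other bases in lower case. The ceh-22 stretch is shorter because untranslated bases were left out. They lie at chrV:10672634-10672716 for ceh-22, chrV:4502734-4502834 for unc-62, chrIII:4805699-4805799 for pal-1, chrIII:10921593-10921693 for vab-7 and chrIII:7840210-7840310 for ceh-23.
ceh-22: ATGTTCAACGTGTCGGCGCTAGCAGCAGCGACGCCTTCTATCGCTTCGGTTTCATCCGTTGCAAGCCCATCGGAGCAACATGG
unc-62: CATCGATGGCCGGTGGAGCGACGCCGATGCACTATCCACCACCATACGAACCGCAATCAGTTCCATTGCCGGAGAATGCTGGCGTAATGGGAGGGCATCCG
pal-1: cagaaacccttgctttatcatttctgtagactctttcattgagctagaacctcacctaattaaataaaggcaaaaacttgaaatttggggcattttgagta
vab-7: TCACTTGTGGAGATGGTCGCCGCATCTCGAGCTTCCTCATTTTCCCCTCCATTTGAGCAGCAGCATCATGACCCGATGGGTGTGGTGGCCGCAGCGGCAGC
ceh-23: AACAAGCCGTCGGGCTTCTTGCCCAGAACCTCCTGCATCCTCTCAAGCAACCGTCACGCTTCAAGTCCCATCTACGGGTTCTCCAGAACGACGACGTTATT
The ceh-22, unc-62, vab-7 and ceh-23 stretches are coding exon throughout, with a GC content of 54.5% to 59.4%, and the pal-1 stretch is intron throughout, with a GC content of 34.7%.

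The next stretches come from the only 4 listed genes that held either of the 2 motifs searched within 100 bp of their highest pooled summit. The motifs were AATGCAT, the core of the site that UNC-86 and MEC-3 bind together in the mec-3 promoter, and TAATTA, a core that many homeodomains bind. Both strands were searched, TAATTA reads the same on both, and the motifs do not overlap each other in these stretches. Capitals mark the motif, which for ceh-36 is ATGCATT, the reverse complement of AATGCAT. The stretches lie at chrIII:4805745-4805770 for pal-1, chrX:7536127-7536152 for ceh-14, chrIII:5795118-5795143 for ceh-10 and chrX:14183299-14183325 for ceh-36, on the plus strand of the same assembly.
pal-1: gaacctcaccTAATTAaataaaggca
ceh-14: tcgaaacataTAATTAagctcatttt
ceh-10: tgtggcgtcaTAATTAgttgacaaaa
ceh-36: aaaatatcatATGCATTgtaagatttt
AATGCAT was thus found at 1 of 40 highest regions (2.5%), beside 2.54% of all 27953 pooled regions searched over the same length. TAATTA was found at 3 of 40 (7.5%), beside 6.18% of all pooled regions. Over all 131 distinct pooled regions in the genes' windows, 5 (3.82%) held AATGCAT and 9 (6.87%) held TAATTA. Both shares were close to those of the whole list.

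Nearly all of these genes had a candidate region in their window, as did most genes. In the pooled list 40 of 41 genes had a region in their window (97.6%), beside 80.8% of all protein-coding genes. The gene without one was ceh-2, which encodes an ems-type homeodomain protein. In the replicate 1 list all 41 had a region (84.1% of all genes), and in the replicate 2 list 34 of 41 did (76.1% of all genes). The genes with no replicate 2 region were ceh-2, ceh-16, ceh-20, ceh-27, ceh-31, ceh-36 and vab-15. For ceh-36 this rests on the edge of the window: a replicate 2 region of signal 20.9 had its summit 62 bp from the highest pooled summit, just past the end of the gene. Longer windows hold more regions, and the listed genes had a median window of 8852 bp beside 7027 bp for all genes. Among genes whose windows were within the listed genes' range of lengths, 82.1% had a pooled region, but that range takes in most genes. When all genes were split into 5 equal groups by window length, the longest group held 18 of the 41 listed genes, all 18 with a pooled region, beside 93.2% of all genes in it. Per 10 kb of window there were 3.18 pooled regions in the listed genes and 2.90 in all genes.

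The strength of those regions was close to that over all genes. The highest pooled signal in the window had 38.4 as its median over the 40 genes with a region, from 22.8 for ceh-16, the engrailed homologue, to 112.5 for ceh-5. The median over all genes with a region was 37.4. In the replicate 1 list the medians were 21.98 and 21.2, and in the replicate 2 list 22.9 and 21.8. The median listed gene therefore stood above 53% of genes in the pooled list, 53.6% in replicate 1 and 56.3% in replicate 2. Among the 25% of genes with the highest pooled signals there were 11 of 40 listed genes (27.5%), where 25% is the share of all genes by construction. Window length matters here too: the all-gene median was 35.3 in the shortest of the 5 length groups and 42.9 in the longest. Above the all-gene median of their own length group were 21 of 40 listed genes (52.5%). The listed median was below it in the next longest group, 31.5 beside 37.7, and above it in each other group. The deposited −log10 q-values of the highest regions ran from 0.022 for ceh-16 to 1.98 for ceh-17, so the lists reach down to very weak regions. The number of reads is unknown, signals can be compared only within a list, and with 1 group and no control sample used here no test between groups was possible.

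**Figure D1:**
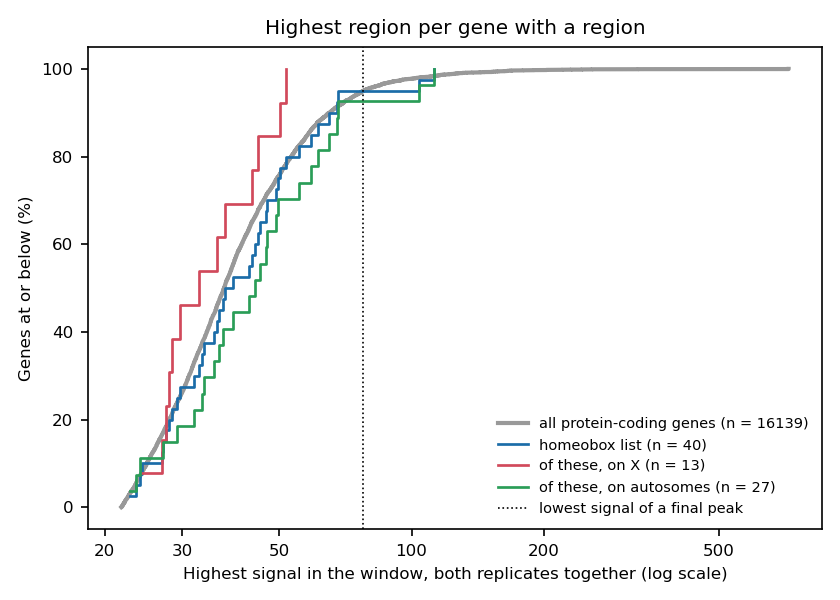
Cumulative share of genes (y axis, %) by the highest pooled signal in their window (x axis, log scale) for all 16139 protein-coding genes with a region, the 40 listed genes with a region, and the same split into 13 on X and 27 on autosomes. The line of the 40 listed genes runs close to that of all genes (medians 38.4 and 37.4), the X genes lie to the left, and 2 listed genes pass the dotted line at the lowest signal of a final peak, 77.4.

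Final peaks lay in the windows of 2 of the 41 genes, ceh-5 and ceh-17, beside 4.12% of all genes and 4.18% of genes in the same range of window lengths. CEH-17 is a Phox2-like paired-type protein that acts in the ALA neuron. Its region, I:4571891-4572334 on ce11, had a signal of 104 in the pooled list (rank 144), 50.6 in replicate 1 and 54.01 in replicate 2. The summit lay 2086 bp upstream of ceh-17, in a coding exon of the collagen gene col-52, and the ceh-17 5′ end was the nearest of any protein-coding gene. The ceh-5 region, I:9722012-9722455, had a signal of 112.5 in the pooled list (rank 116), 55.6 in replicate 1 and 58.8 in replicate 2. These regions stood above 98.0% and 98.4% of genes in the pooled list, and above 97.2% to 98.7% in the replicates. The ceh-5 summit was 4935 bp upstream, only 65 bp inside the limit of the window. It lay in an intron of ocrl-1, which encodes an inositol polyphosphate phosphatase, within the non-coding RNA genes C16C2.7 and C16C2.8, and 482 bp upstream of eat-16, which encodes a regulator of G protein signalling. Neither final peak lay inside its listed gene or within 2000 bp upstream of it, so both calls rest on the length of the window: with 2000 bp upstream the count was 0 of 41 (2.81% of all genes), and with each region given only to the nearest 5′ end it was 1 (1.88% of all genes).

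**Figure D2:**
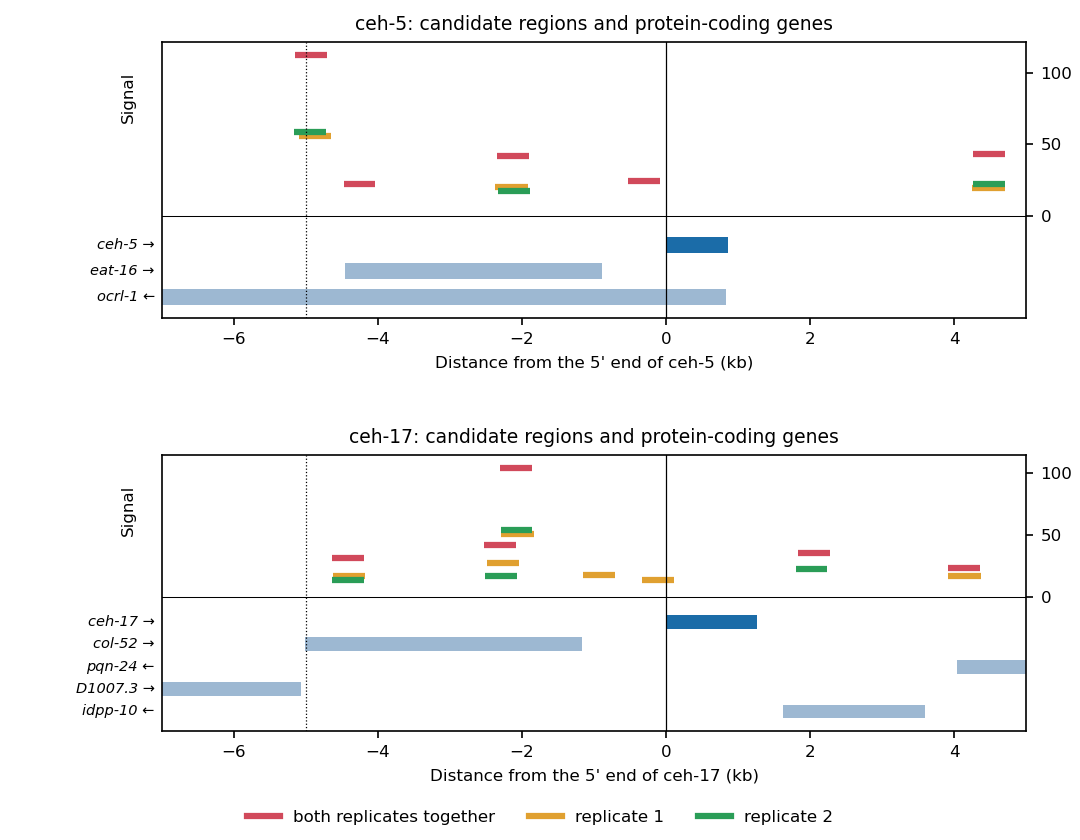
Candidate regions around ceh-5 (top) and ceh-17 (bottom), drawn as bars at their signal (y axis, the authors' value, comparable only within a list) against the distance from the gene's 5′ end (x axis, kb), with protein-coding genes below and the dotted line at 5 kb upstream. In both panels the highest bar of each list stands at one place, 4935 bp upstream of ceh-5 at the edge of the window and 2086 bp upstream of ceh-17 over col-52.

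Among the 6 LIM genes, the class of MEC-3 itself, 1 stood high and 3 stood low. The highest region of lin-11, which acts in the vulva and in interneurons, had a signal of 61.2 in the pooled list, 29.96 in replicate 1 and 39.1 in replicate 2. The pooled summit lay in a coding exon 172 bp into the gene and the replicate 1 summit 102 bp into it, but the highest replicate 2 summit was 3272 bp into it. At the pooled region itself the replicate 2 signal was 25.6. The highest region of lim-7 had signals of 45.3, 20.6 and 22.1 in the pooled, replicate 1 and replicate 2 lists, in an intron and at the same place in all 3 lists. That of ceh-14, which acts in the AFD thermosensory neuron, had a pooled signal of 44.7 at 3464 bp upstream and a replicate 2 signal of 31.1 there, and its highest replicate 1 region, at 18.02, lay elsewhere, 4049 bp into the gene. The nearest 5′ end to that pooled summit was that of the collagen gene dpy-7. The others were below the all-gene median of 37.4: ttx-3, the AIY interneuron regulator, at 32.7, lim-6, which acts in GABAergic neurons, at 28.5, and lim-4, which fixes the AWB olfactory neuron, at 27. Their replicate 1 signals were 18.5, 13.2 and 17.8 and their replicate 2 signals 17.2, 18.7 and 14.4. The class median in the pooled list was 38.7, above the all-gene median. In both replicate lists it was below that of all genes, at 18.3 beside 21.2 in replicate 1 and 20.4 beside 21.8 in replicate 2.

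MEC-3's own gene and that of its partner, which are not among the 41, stood apart from each other. At mec-3 no pooled region fell in the window, and the highest regions of the replicates lay apart, with a signal of 13.6 at 4308 bp upstream in replicate 1 and of 20.4 at 2177 bp into the gene in replicate 2. At unc-86 a region 90 bp upstream of the 5′ end, III:8216204-8216647, had a pooled signal of 61.6, a replicate 1 signal of 36.7 and a replicate 2 signal of 26.5, above 88.05% of genes in the pooled list.

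The 2 POU genes differed in the number of regions. The window of ceh-18, which acts in the gonadal sheath, held 8 pooled regions, the highest at 43.4 in an intron 9427 bp into the gene. Replicate 1 had its highest signal there too, 29.4, but the highest of replicate 2 was 18.2 and lay 1843 bp upstream. The highest region of ceh-6, which acts in the excretory canal, had a pooled signal of 27.1 at 2243 bp upstream, a replicate 1 signal of 19.5 and no replicate 2 summit within 100 bp. Its highest replicate 2 signal, 15.98, lay 274 bp into the gene. All 3 values of ceh-6 are below the all-gene medians of their lists.

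The 10 paired-like and PAX genes had a median pooled signal of 40.6, from 27.6 for ceh-37 to 104 for ceh-17. After ceh-17 the highest was vab-3, the PAX6 homologue that patterns the head, with 50.2 at 15566 bp into the gene and 9 regions in its window. The highest replicate 1 and replicate 2 signals of vab-3 were 23.2 and 30.2, but lay elsewhere, 14952 and 15425 bp into the gene. At the pooled region itself the replicates had 16.9 and 19.8. The vab-3 gene is long, and the nearest 5′ end to its highest pooled summit was that of F14F3.4. The highest region of ceh-10, which acts in the CAN and AIY neurons, had signals of 43.99, 23.1 and 19.7 in the pooled, replicate 1 and replicate 2 lists. It was the only pooled region in that window, at 3878 bp upstream in an intron of the DNA polymerase theta gene polq-1, and it holds the TAATTA printed above. The remaining genes of the class were eyg-1, unc-30, unc-42, ttx-1, unc-4, ceh-36 and ceh-37, with pooled signals from 27.6 to 46.9. Of these, unc-4 stood above 28.9% of genes in replicate 1 and 67.5% in replicate 2. The replicates stood furthest apart for unc-30 and unc-42. For unc-30, which specifies GABAergic motor neurons, the replicate 1 signal of 33.6 stood above 87.9% of genes and the replicate 2 signal of 17.8 above 25.2%. For unc-42, a regulator of command interneurons, 83.35% of genes lay below it in replicate 1 and 15% in replicate 2.

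The pooled signals of the 4 sine oculis type genes ran from 33.3 to 49.1, with 40.9 as the median. They stood above 37.3% to 74.6% of genes in the pooled list. The highest, ceh-33, had 49.1 in the pooled list, 25.4 in replicate 1 and 24.6 in replicate 2, all at one place 991 bp upstream, in a coding exon of C10G8.8. For ceh-32, which acts in head development, the pooled summit was 249 bp upstream, outside protein-coding genes, with a pooled signal of 42.5. Its highest replicate 2 region, at 23.3, was at the same place, and its highest replicate 1 region, at 27.4, was 1202 bp into the gene. For unc-39 the highest signals were 39.2 in the pooled list, 21.03 in replicate 1 and 24.96 in replicate 2. The pooled and replicate 2 summits lay 4291 and 4295 bp upstream, and the replicate 1 summit lay elsewhere, 3492 bp upstream. For ceh-34, which specifies pharyngeal neurons, the highest signals were 33.3, 16.4 and 20.1 in the same order. Its pooled summit lay in a coding exon of the gene, and replicate 1 had its highest summit there too. The highest replicate 2 summit lay 224 bp upstream, and at the pooled region the replicate 2 signal was 14.6. The windows of ceh-33 and ceh-34 share 1 region, so these neighbouring genes are not independent.

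The 4 TALE genes spread from above 91.4% of genes to above 5.53%. The window of unc-62, a Meis-type Hox partner, held 12 pooled regions, more than any other listed gene, and the highest, V:4502562-4503005, had a pooled signal of 67.5 and was 5323 bp into the gene, in a coding exon. At that region replicate 1 had 30.02 and replicate 2 had 34.7, so both replicates had a summit there. The highest replicate 1 region of unc-62 was slightly stronger, 31.2, and lay 2011 bp upstream. The other TALE genes, ceh-60, ceh-40 and ceh-20, had pooled signals of 37.6, 29.7 and 23.6. For ceh-60 the replicates stood far apart, above 15.7% of genes in replicate 1 and 73.2% in replicate 2.

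The 14 ANTP and NK genes held many of the strongest and weakest of the list. After ceh-5, ceh-22, an NK-2 factor of pharyngeal muscle, had signals of 67.9 in the pooled list, 31.4 in replicate 1 and 34.9 in replicate 2, with all 3 summits within 3 bp in a coding exon 748 bp into the gene. For pal-1, the caudal homologue that patterns the posterior, they were 65.0, 38.7 and 28.4, in an intron 3827 bp into the gene. Both replicate summits of pal-1 were within 100 bp of the pooled summit but 121 bp from each other, and the nearest 5′ end was that of metl-5. The even-skipped homologue vab-7 had a pooled signal of 59.2 in a coding exon 1299 bp into the gene, with 10 regions in its window. At that region replicate 1 had 19.9 and replicate 2 had 30.3, and the highest regions of the replicates, 34.8 and 31.6, lay further into the gene. For ceh-23 the signals were 55.5, 22.6 and 33.7, in a coding exon 668 bp into the gene. The remaining genes with a pooled region were cog-1 at 49.6, ceh-31 at 36.1, ceh-43 at 35.6, tab-1 at 31.9, ceh-24 at 29.2, vab-15 at 24.4, ceh-27 at 24.1 and ceh-16 at 22.8. The class median in the pooled list was 36.1, below the all-gene median, although 6 of the 11 listed genes in the top 25% were of this class. In the replicate lists the median over the class genes with a region was above that of all genes with one. It was 22.3 beside 21.2 in replicate 1, and 28.4 beside 21.8 in replicate 2. In replicate 2 only 9 of the 14 genes had a region (64.3%, beside 76.1% of all genes). The genes left out there, ceh-2, ceh-16, ceh-27, ceh-31 and vab-15, had no pooled region or one below the all-gene median.

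The COE factor unc-3, a regulator of cholinergic motor neurons, had a pooled signal of 51.6 in an intron 3026 bp into the gene. Replicate 1 had its highest signal there, 25.3, and replicate 2 had no summit within 100 bp. The highest replicate 2 region of unc-3 had a signal of 23.2 and lay 2901 bp into the gene.

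**Figure D3:**
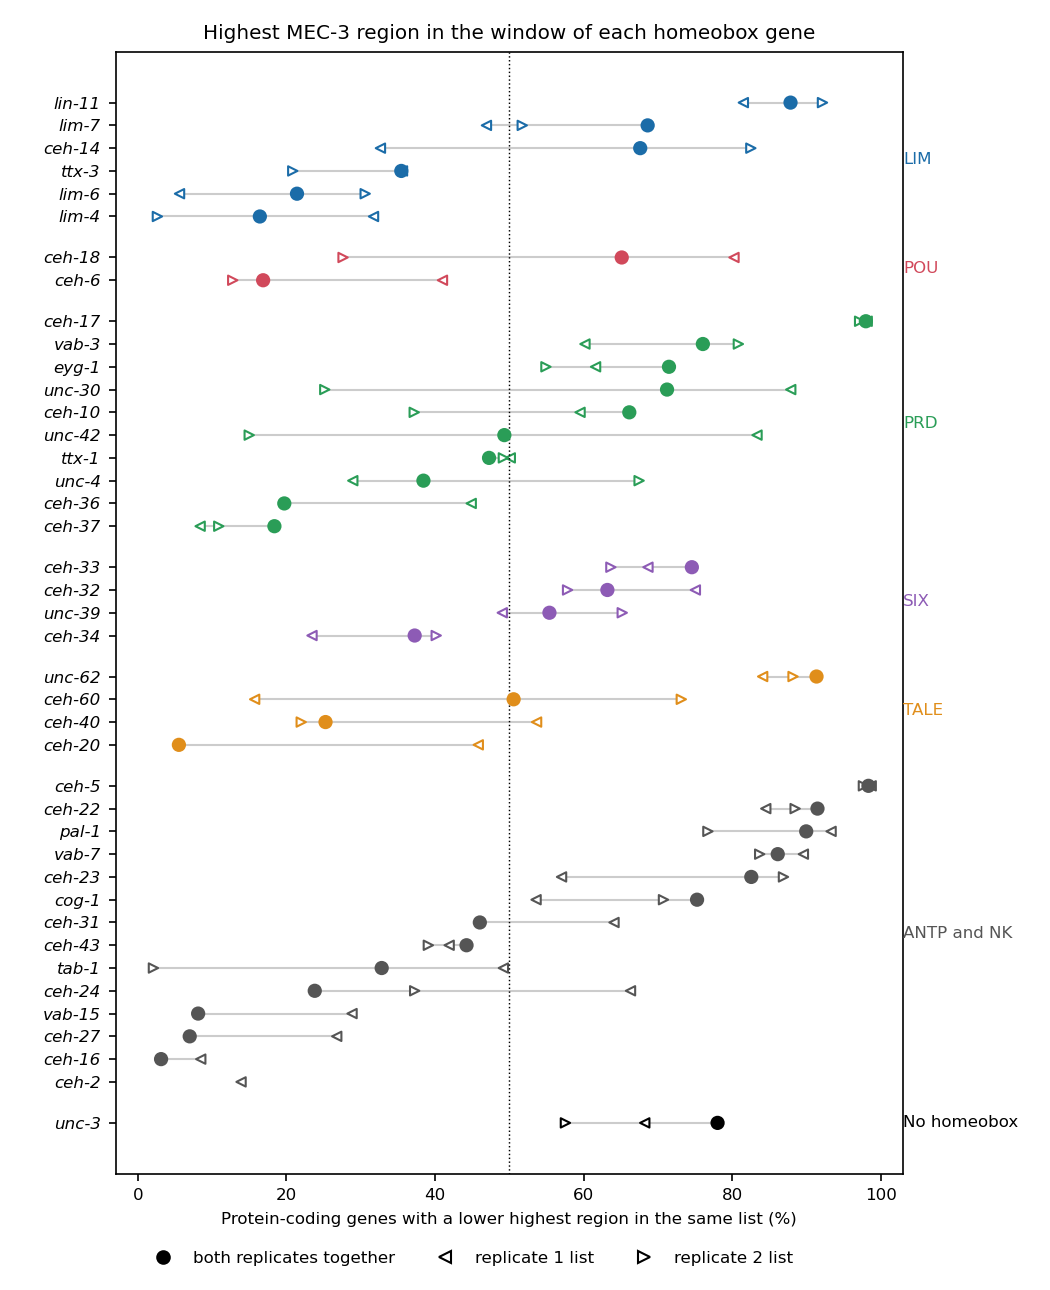
Share of protein-coding genes with a lower highest region in the same list (x axis, %) for each listed gene (y axis, by class), with filled circles for the pooled list and open triangles pointing left and right for replicates 1 and 2. The 3 marks of ceh-5 and ceh-17 lie together at the right, and those of unc-30, unc-42 and ceh-60, among others, lie far apart. Genes without a right-pointing triangle had no replicate 2 region.

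In 17 of the 41 windows (41.5%) a replicate 1 and a replicate 2 summit lay within 100 bp of each other, beside 39.4% of all genes. How this count stood to all genes depended on the distance allowed: within 50 bp it was 13 of 41 beside 28.4% of all genes, and within 200 bp 26 of 41 beside 47.8%. The highest pooled region had a summit of both replicates within 100 bp in 19 of 40 genes, beside 42.2% of genes with a region. In another 20 it had a summit of 1 replicate, and for ceh-16 of neither. No share of all genes is given here for these counts, so they describe the list only. The highest region was at one place in both replicates in 7 of the 34 genes with a region in each, beside 22.7% of all such genes. Among the top 25% of genes in both replicate lists there were 7 of 34, beside 15.4% of all genes with a region in each. The highest region was at one place in all 3 lists, within 100 bp of the pooled summit, for ceh-5, ceh-17, ceh-22, pal-1, ceh-23, ceh-33, lim-7, ceh-10 and lim-4. These 9 of the 41 genes run from the strongest listed gene to lim-4, at 27, and no share of all genes is given here for them. The replicate summits were 121 bp apart for pal-1 and 178 bp apart for lim-4, so neither is among the 7 genes above. The weakest of those 7 in the pooled list was ceh-10, at 43.99, above 66.2% of genes.

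**Figure D4:**
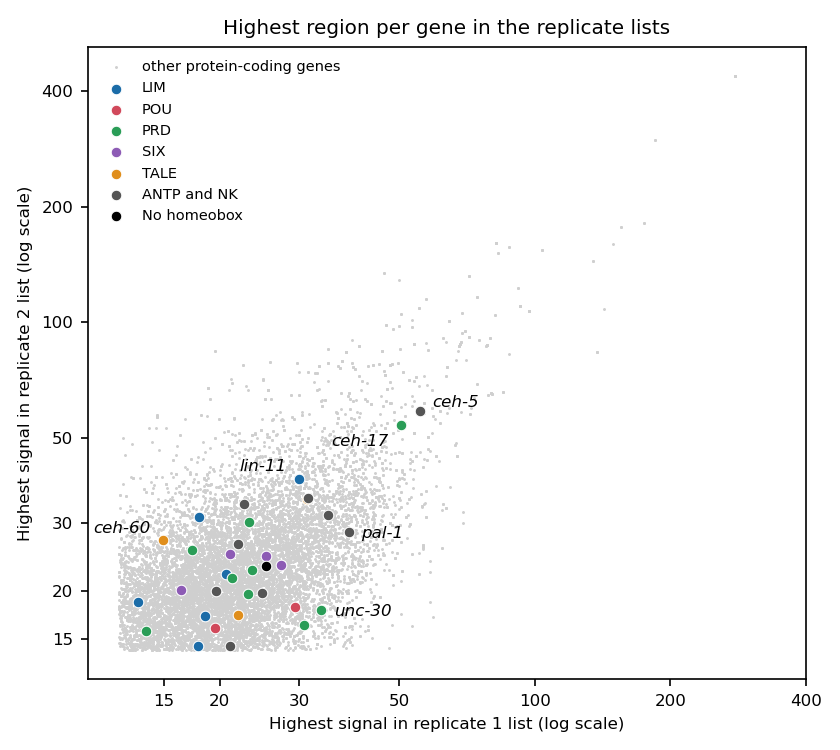
Highest signal per gene in the replicate 1 list (x axis) and the replicate 2 list (y axis), both on log scales, for the 34 listed genes with a region in each (coloured by class) and all other such genes (grey). The points of ceh-5 (55.6 and 58.8) and ceh-17 (50.6 and 54.01) are the only listed genes above 50 in both lists, and the rest lie within the grey cloud.

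Where the regions lay did differ in share from all genes. The highest pooled summit was inside the gene itself for 24 of 40 genes (60%), beside 33.9% of all genes with a region. The listed genes are longer, with a median of 3852 bp beside 2027 bp, and the gene took 43.5% of the median window beside 28.9%. In the longest of the 5 groups by window length, 15 of 18 listed genes with a region and 55.5% of all such genes had the summit inside. From the next longest group to the shortest, the counts were 6 of 12 (36.01% of all genes), 2 of 5 (29.6%), 1 of 4 (25.4%) and 0 of 1 (17.05%). More than 500 bp into the gene there were 20 of 40 (50%, beside 26.5% of all genes), and more than 1000 bp upstream 13 (32.5%, beside 50.4%). Within 1000 bp upstream there were only 3 of 40 (7.5%, beside 15.7%): ceh-31, ceh-32 and ceh-33. The gene's own 5′ end was the nearest to its highest summit for 27 of 40, beside 47.7% of genes with a region. The highest summits fell in coding exons for 15 genes (37.5%, beside 39.8%), introns for 13 (32.5%, beside 25.04%), untranslated exons for 2 and outside protein-coding genes for 10 (25%, beside 29.9%). The median GC content within 100 bp of the highest summits was 45.5%, beside 43.3% over the highest regions of any gene and 42.3% over all pooled regions. None of the 40 highest regions had its summit near a tRNA, snRNA, snoRNA or rRNA gene. Of the 9765 distinct highest regions of any gene, 289 did. None of the 40 lay in sequence mostly repeated elsewhere within 100 bp of the summit, beside 270 of those 9765. Nearness to other non-coding RNA genes was not counted.

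**Figure D5:**
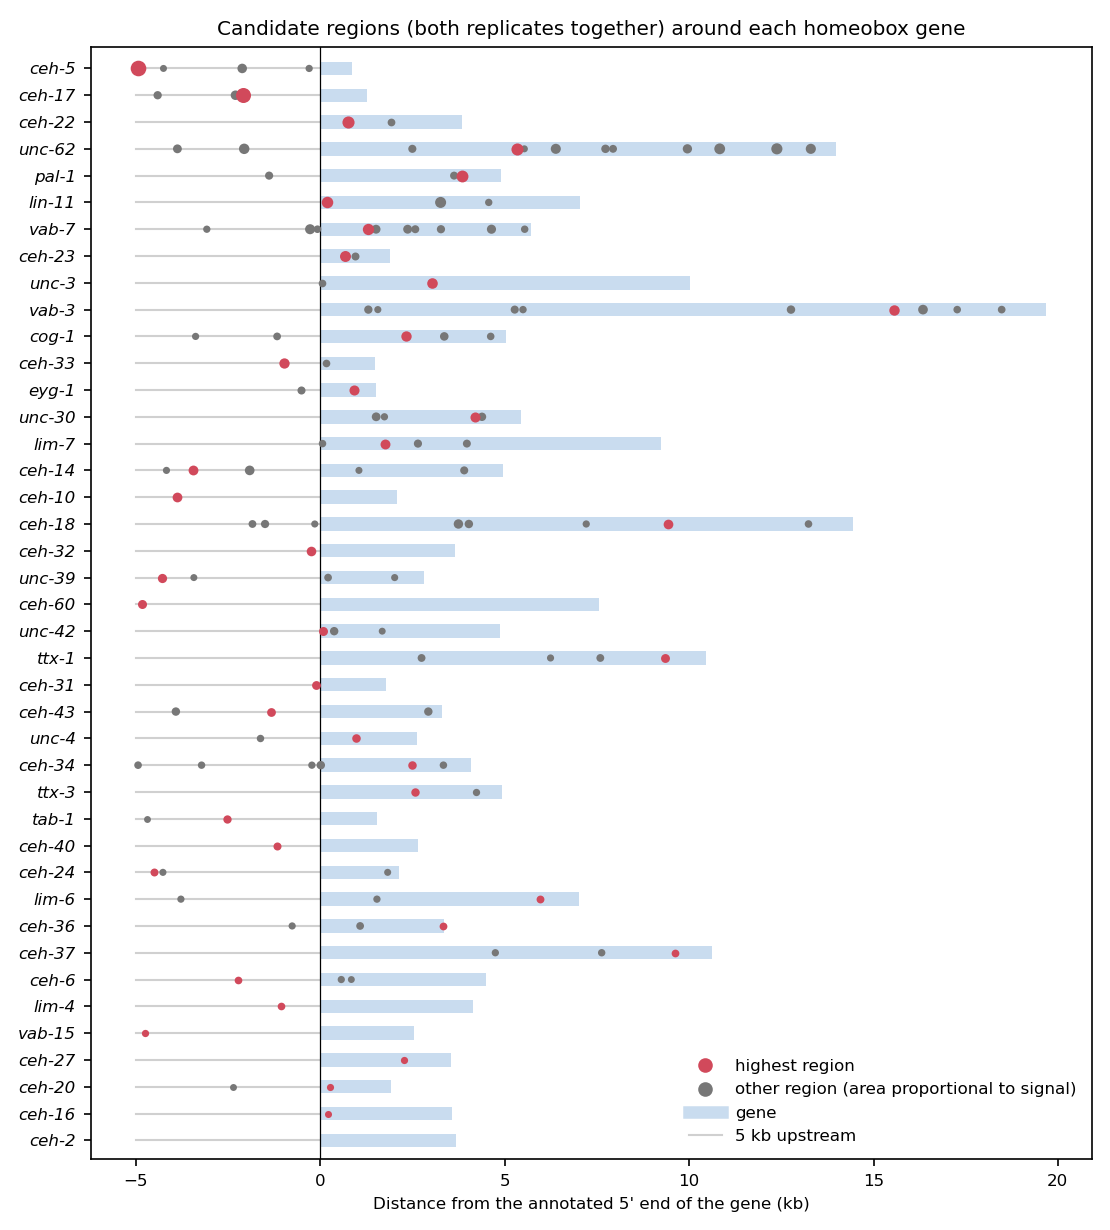
Pooled candidate regions in the window of each listed gene (y axis, ordered by highest signal) by distance from the annotated 5′ end (x axis, kb), with dot area proportional to signal, the highest region in red and the gene as a blue bar. Red dots lie inside the blue bar for 24 genes, and just upstream of the 5′ end for few, and long genes such as unc-62 and vab-3 hold many regions.

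The chromosomes split the list unevenly, a comparison chosen after the values were seen. On X there were 13 of the 41 genes (31.7%, beside 13.7% of all genes). Their median highest pooled signal was 32.7, beside 37.1 for all X genes, and that of the autosomal genes was 43.99, beside 37.5. In replicate 1 the X and autosomal medians were 18.5 and 22.8, beside 20.99 and 21.3 for all X and all autosomal genes. In replicate 2 they were 18.4 and 23.9, beside 21.4 and 21.8. The highest X gene was unc-3 at 51.6, and the groups overlap, since autosomal genes ran from 22.8 to 112.5. Summits of the replicates lay within 100 bp of each other in 2 of the 13 X windows, beside 1026 of 2731 for all X genes. On autosomes they did so in 15 of the 28 windows, beside 6843 of 17242 for all autosomal genes.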

How the data were processed

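Region lists deposited by the authors were used, not reads. Per the labels, MEC-3-GFP ChIP-seq was done on 2 biological replicates. The aligner, peak caller and filters were not given in the sources used here, and the read depth is unknown. Each region carries the signal that the authors deposited, whose scale is not given, and the −log10 q-value that the authors deposited. Signals were compared only within a list. The 4 lists on ce11 were used, and 4 lists on another build were not used here. Genes came from Ensembl release 115 (WBcel235, the assembly that ce11 names).

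The highest-signal region with its summit from 5000 bp upstream of the 5′ end to the gene end was taken per gene and list with Python 3.11.15, numpy 2.4.6 and pandas 2.3.3, checked on simulated regions. Figures were drawn with matplotlib 3.10.9. The percentage of genes below counts genes with a region in the same list. A tRNA, snRNA, snoRNA or rRNA gene within 500 bp of the summit, or over 50% of 24-mers occurring elsewhere, marked a region as doubtful. The genes described in full are all LIM, POU and sine oculis type genes, the 10 of highest pooled signal, those with a final peak, those with one place in 3 lists, and mec-3 and unc-86. The genes, lists and rules were chosen with earlier results of these data known. Alternatives were other windows, overlap, nearest 5′ end, replicate distance, each replicate alone, and removal of doubtful regions.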

Additional observations from a re-analysis of the deposited data

How the results depend on the processing

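The count of genes with a pooled region was 16 under a promoter window (1000 bp upstream to 500 bp into the gene; 37.5% of all genes), and 34 to 41 with either replicate left out. Final peaks were 0 with the gene alone (1.06% of all genes), the promoter window (1.47%) or 2000 bp upstream (2.81%), and 1 with the nearest 5′ end only (1.88%). When the 457 strongest regions of a replicate stood in for them, the count was 2 with replicate 1 (3.95% of all genes) and 2 with replicate 2 (4.46%). Windows with replicate summits together were 11 with the gene alone (17.3% of all genes), 3 in the promoter window (11.6%) and 26 at 200 bp (47.8%). The median highest signal was 39.6 with any overlap (37.7 for all genes), 35.1 with the gene alone (33.6), 39.2 with the nearest 5′ end only (34.4), and 28.7 in the promoter window (31.9), the only window in which the listed genes fell below all genes. With either replicate left out it was 21.98 to 22.9, on the scale of a single list. Fewer summits lie in shorter windows by construction, and the cause of the other shifts was not tested. For single genes, the share of genes below moved by less than the SD between its 2 replicate values in 32 of 40 genes with any overlap, 23 of 35 with 2000 bp upstream and 2 of 16 in the promoter window, where a gene with no replicate 2 region has no SD and counts as moved unless its value was equal. Depth is unknown, so a gene without a region cannot be called free of MEC-3. The replicates are separate samples per the labels, and no error of a signal can be given. No paired analysis was possible because there is 1 group.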

Other observations

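Of 31 homeobox genes outside the list, 26 had a pooled region (83.9%, beside 80.8% of all genes), with a median highest signal of 35.98, beside 37.4 over all genes. In replicate 1 their median was 25.1, beside 21.2 over all genes, and 25 of 31 had a region (84.1% of all genes). In replicate 2 it was 21.85, beside 21.8. A final peak lay in the window of 2 of the 31 (6.45%, beside 4.12% of all genes): ceh-39 at 84.7, a ONECUT-type gene, and ceh-9 at 77.8, both named after their values were seen. Of the 6 Hox genes, 5 had a pooled region (83.3%, beside 80.8% of all genes), with a median of 51.5, beside 37.4 over all genes. None had a final peak, beside 4.12% of all genes. The value of nob-1 and of php-3, neighbouring posterior Hox genes, was 53.8 for both, so the Hox median may count 1 region more than once. The Hox medians in replicates 1 and 2 were 22.2 and 23.2, beside 21.2 and 21.8 for all genes.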
